A study of Mus musculus with 24 samples.

Results

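Expression of 38 genes that respond within minutes to hours to a stimulus or to protein damage, 27 immediate-early genes and 11 heat shock genes, was followed in cholangiocytes, the epithelial cells that line the bile ducts. The genes were taken from a fixed list of transcripts known to be induced while a tissue is taken apart into cells. All 38 were found, each under 1 identifier, among the 49315 genes counted in each of 24 libraries. Counts of these genes ranged upward from 6 (Egr3 in 1 female library) and none of the 912 values was 0, so all 38 entered every test.

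Immediate-early genes are transcribed without new protein synthesis. Kinase cascades act on factors already bound at their promoters, among them serum response factor (Srf) with its ternary complex partners Elk1, Elk3 and Elk4, and CREB. Many of the products are transcription factors: the Fos and Jun families pair to form AP-1, the Egr, Klf and Nr4a families are zinc-finger factors and orphan nuclear receptors, and Myc drives growth genes. Others end the response: Dusp1 dephosphorylates MAP kinases, Zfp36 marks AU-rich transcripts for decay, Nfkbia holds NF-kB in the cytoplasm and Socs3 blocks cytokine receptor signalling. Heat shock genes are driven mainly by Hsf1, which is held inactive by chaperones and released when unfolded protein occupies them. Hspa1a and Hspa1b are the inducible Hsp70 genes, Hspa8 is the constitutive Hsp70, Dnaja1 and Dnajb1 are J-domain co-chaperones that deliver clients to Hsp70, Hsph1 and Bag3 exchange its nucleotide, Hsp90aa1 is the inducible Hsp90, Hspb1 is a small heat shock protein, and Hspd1 with Hspe1 forms the mitochondrial chaperonin.

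Intrahepatic cholangiocytes were taken from wild-type (WT) mice and from dnTGFB mice, which carry a dominant-negative type II receptor for TGF-beta and model primary biliary cholangitis. Mice of both genotypes were left untreated or received secretin, a gut hormone that stimulates bile duct secretion, at 4 µg/kg per day for 8 weeks from implanted pumps renewed after 1 month. Each of the 8 groups (2 sexes, 2 genotypes, with and without secretin) held 3 libraries, and the sexes were analysed apart, as the study did. Cells from 6 to 8 mice of a group were pooled, isolated with an antibody and magnetic beads, and their RNA was sequenced in triplicate, so the p-values below measure the spread between libraries and not between mice. Some libraries of a group differed well beyond sampling noise, as described below, and whether all 3 came from 1 pool was not tested. Untreated WT mice were used at 32 weeks and secretin-treated mice at 40 weeks, so that secretin and age cannot be told apart in WT; neither the age of untreated dnTGFB mice nor the promoter of the transgene is stated in the labels. The genotype label went against the title in 12 of 24 libraries, and groups follow the titles, which match the design text.

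Promoter sequences from RefSeq (GRCm38.p6, 250 bases before to 50 bases after the transcription start) were available for 31 of the 38 genes. Those of Hspa8, Myc, Egr3, Egr1, Hsp90aa1, Fosl1 and Ier2 were not used here. The Fos promoter is printed to set the CREB-type and TATA letters of an immediate-early gene beside the heat shock promoters, and those of the heat shock genes whose values the results turn on follow. Capitals mark TGACG (the core of the CREB site) and TATAAA in Fos, and the heat shock element, searched as GAANNTTC or TTCNNGAA, in the others. The Fos window is chr12:85473640-85473939 on the plus strand, with TGACG starting at -129 and -66 and TATAAA at -33 from the start.
Fos: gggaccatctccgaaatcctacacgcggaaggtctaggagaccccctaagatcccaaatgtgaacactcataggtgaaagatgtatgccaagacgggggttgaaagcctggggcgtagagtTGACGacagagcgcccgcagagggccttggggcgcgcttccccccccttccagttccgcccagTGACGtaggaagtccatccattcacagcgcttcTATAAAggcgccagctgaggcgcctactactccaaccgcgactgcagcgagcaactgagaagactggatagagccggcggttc
The Hspa1a window is chr17:34972107-34972406 and the Hspa1b window is chr17:34959189-34959488, both on the minus strand, with the element at -104 in each. Of their 300 bases 296 were identical.
Hspa1a: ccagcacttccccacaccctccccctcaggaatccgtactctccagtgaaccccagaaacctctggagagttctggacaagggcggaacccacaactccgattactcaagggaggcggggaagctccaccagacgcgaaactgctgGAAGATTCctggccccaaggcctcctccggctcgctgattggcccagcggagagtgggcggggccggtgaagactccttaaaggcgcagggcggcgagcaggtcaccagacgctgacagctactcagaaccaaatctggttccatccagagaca
Hspa1b: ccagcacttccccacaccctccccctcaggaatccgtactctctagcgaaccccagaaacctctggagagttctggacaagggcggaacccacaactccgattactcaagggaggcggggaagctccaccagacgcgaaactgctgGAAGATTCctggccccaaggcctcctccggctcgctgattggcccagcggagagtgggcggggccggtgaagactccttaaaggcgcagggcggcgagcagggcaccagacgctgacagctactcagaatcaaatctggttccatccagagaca
The Hspb1 window is chr5:135887669-135887968 on the plus strand, with elements at -117 and -97.
Hspb1: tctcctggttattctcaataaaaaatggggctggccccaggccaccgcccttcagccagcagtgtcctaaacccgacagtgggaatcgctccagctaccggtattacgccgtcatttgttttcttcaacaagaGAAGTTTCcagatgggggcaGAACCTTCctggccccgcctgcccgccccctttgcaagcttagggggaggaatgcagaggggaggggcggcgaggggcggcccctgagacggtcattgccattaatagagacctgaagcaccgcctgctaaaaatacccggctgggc
The Hsph1 window is chr5:149636287-149636586 on the minus strand, with 1 element at -33 and a pair of overlapping ones at 37 and 42.
Hsph1: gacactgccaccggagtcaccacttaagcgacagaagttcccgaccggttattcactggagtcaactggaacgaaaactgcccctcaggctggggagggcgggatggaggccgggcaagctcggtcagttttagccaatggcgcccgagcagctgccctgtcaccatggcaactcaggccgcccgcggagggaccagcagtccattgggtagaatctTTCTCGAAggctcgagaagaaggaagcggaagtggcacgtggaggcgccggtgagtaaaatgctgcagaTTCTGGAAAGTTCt

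A gene was counted when any of its promoter entries held the letters on either strand. The heat shock element was found in 8 of 9 heat shock genes, Dnajb1 being the exception, and in 3 of 22 immediate-early genes (Fosl2, Jun and Egr2), against 16.97% of all 27025 genes with a promoter. TGACG was found in 13 of 22 immediate-early and 5 of 9 heat shock genes, against 23.05% of all. The CArG box, to which serum response factor binds, was found in Egr2 and Zfp36, 2 of 22 immediate-early genes, and in no heat shock gene, against 1.81%. The AP-1 letters TGANTCA were found in 1 of the 31 genes, Bag3, against 8.97%. A match describes letters in this window only. Hspa1a (34969190 to 34972156) and Hspa1b (34956436 to 34959238) lie side by side on chromosome 17, Hspb1 (135887919 to 135889563) and Hsph1 (149614287 to 149636376) on chromosome 5, Fos (85473890 to 85477273) on chromosome 12, Egr3 (70077445 to 70080157) on chromosome 14 and Fosl1 (5447703 to 5455945) on chromosome 19, all in GRCm38 as the count tables give them.

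The libraries did not all resemble their group, and this bears on every comparison. Totals ran from 1429218 counts (male dnTGFB 3) to 104003184 (female WT secretin 2). After thinning each library to 1400000 counts, libraries were compared by chi-square per gene, where 1 is sampling noise. In 10 of 12 male libraries, but 6 of 12 female ones, the nearest library was of the same group. Male WT 1, male dnTGFB 3, female WT 2, female WT secretin 1, female dnTGFB 3 and female dnTGFB secretin 1 lay more than 10 from every library of their own group. Male WT 1, which enters both WT comparisons in males, lay 40.0 from the nearest library of its group but 7.3 from male dnTGFB 2. Female WT 2 and female dnTGFB secretin 1 lay 1.16 from each other, across the labels, and female WT secretin 1 and female dnTGFB secretin 3 lay 1.42 apart, as close as most male libraries were to the nearest of their group. Whether labels were exchanged was not tested. Female WT secretin 2 and 3 and female dnTGFB 1 and 2 carried 62653 to 79258 CPM of 10 heart muscle markers, against 366.6 to 2790 in the other female libraries. The 12 cholangiocyte markers summed to 148.5 to 5216 CPM over all 24 libraries, and the 12 hepatocyte markers to 615.7 to 27141 CPM; each library held transcripts of both cell types. The share of counts from mitochondrially encoded genes ran from 5.31% to 55.07%. It was 42.75% in male WT 1, 9.73% and 9.75% in male WT 2 and 3, and 55.07% and 55.03% in male dnTGFB 1 and 2. In bulk RNA, fewer cells of a type and less RNA per cell cannot be told apart.

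Levels are given as TMM-scaled CPM (counts relative to the scaled library total, computed within a sex), so male and female levels are on separate scales. Per kilobase of exon, Fos had the highest median of the 38 over the 24 libraries (1171 RPKM), followed by Jun (863 RPKM), Junb (845 RPKM) and Jund (697 RPKM). The first heat shock gene in this order was Hspa8 at rank 11 (337 RPKM), and Egr3 was last (3.20 RPKM). This order pools sexes on separate scales, and it differed between groups: the highest mean was that of Jund in male WT (1452 ± 298 RPKM, SD, n = 3), of Junb in male dnTGFB (810 ± 595 RPKM) and of Fos in the other 6 groups. The first heat shock gene was Hspa1b at rank 8 in male WT and Hspa8 at ranks 4 to 16 in the other 7. The order of neighbours rests on medians whose library ranges overlapped widely: Fos ran from 82.6 to 1583 RPKM and Jun from 88.7 to 1279 RPKM. The 27 immediate-early genes took up to 4.15% of a library's counts. Summed over all 24 libraries, Jun contributed most to the immediate-early sum and Hspa8 to the heat shock sum.

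The immediate-early sum in male WT was 31710, 35810 and 36245 CPM, and in male WT secretin 22979, 23228 and 23389 CPM. With library totals as the scale these groups overlapped, at 22401, 40902 and 40983 CPM in WT and 26163, 26384 and 26412 CPM in WT secretin. With TMM scaling the immediate-early sum was 27665, 27807 and 4986 CPM in male dnTGFB, where secretin treatment went with 33199, 33264 and 32526 CPM. The third dnTGFB library thus stood far below every other male library. The heat shock sum was 8313, 10672 and 10756 CPM in male WT, 3475, 3564 and 3686 CPM in WT secretin, 6169, 6355 and 3778 CPM in dnTGFB, while dnTGFB secretin gave 3865, 3844 and 3851 CPM. Male WT was the highest group for heat shock genes without overlap, which held with library totals as the scale. Both secretin groups were lower than the first and second dnTGFB libraries with TMM scaling, but this order turned with library totals, where the sum was 3515 and 3614 CPM in dnTGFB 1 and 2, 3956 to 4162 CPM in WT secretin and 4793 to 4825 CPM in dnTGFB secretin. The 2 classes therefore did not keep a constant proportion. Their ratio was 3.36 to 3.81 in WT, 6.35 to 6.61 in WT secretin, 4.48, 4.38 and 1.32 in dnTGFB, and 8.45 to 8.65 in dnTGFB secretin. The ratio does not depend on the scaling of a library, and it was higher in both secretin groups than in either untreated group, in all 12 male libraries. In females the ratio ran from 0.61 to 8.03 and overlapped between all 4 groups.

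**Figure D1:**
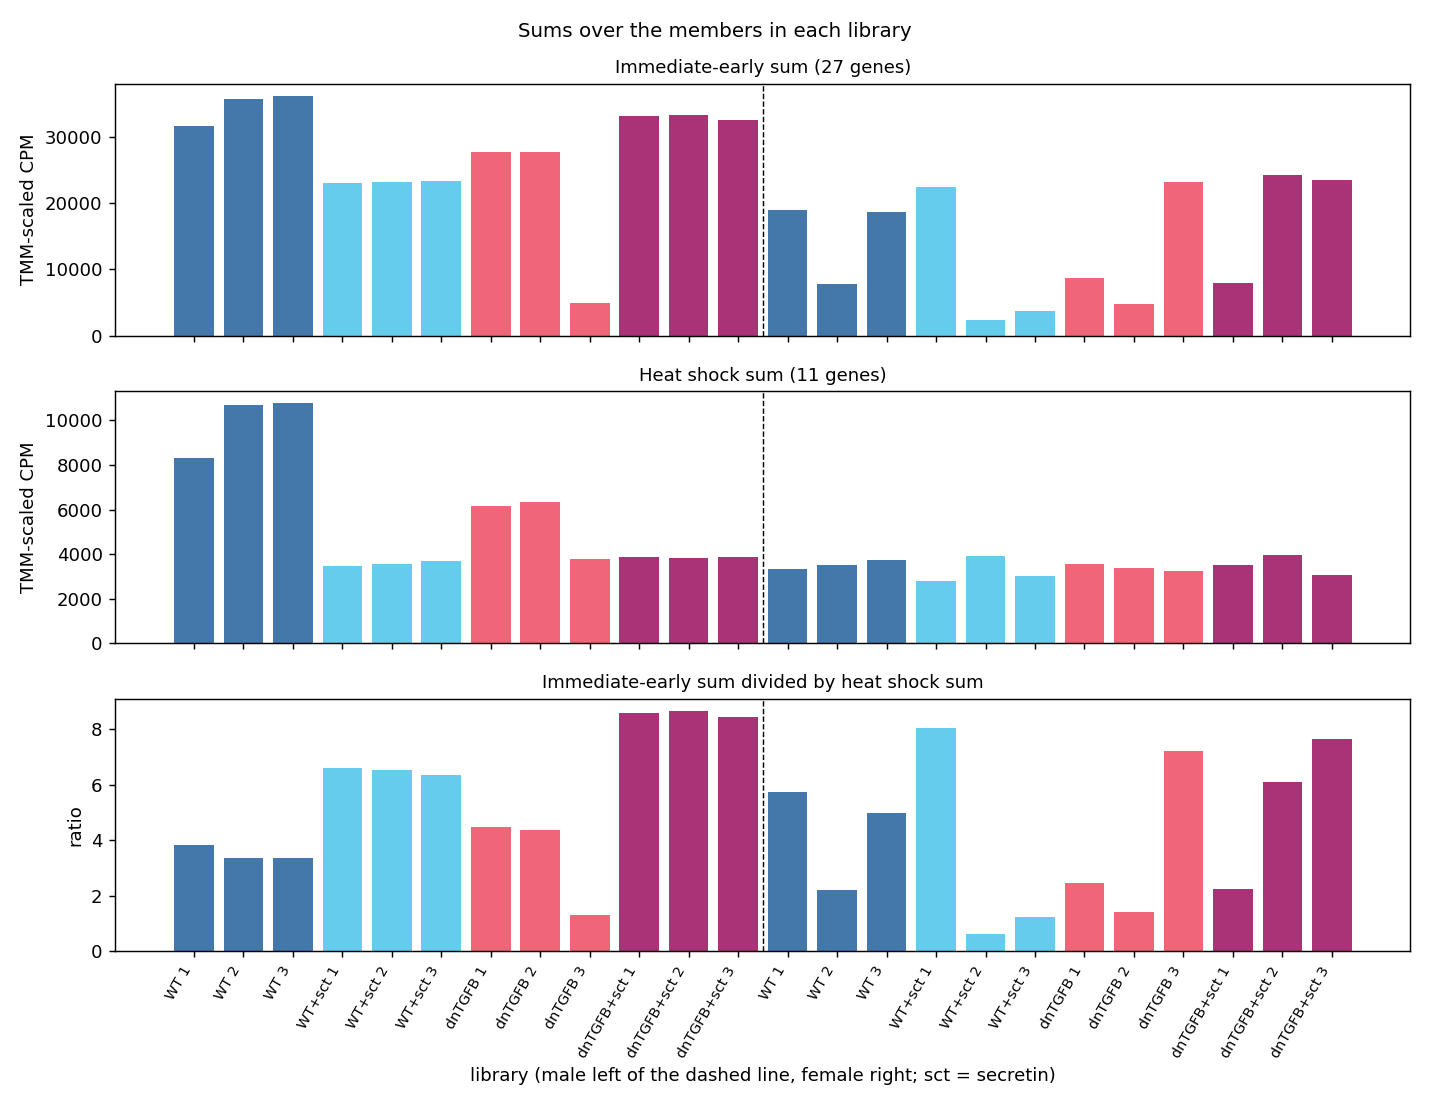
Sum of TMM-scaled CPM over the 27 immediate-early genes (top) and the 11 heat shock genes (middle), and the ratio of both sums (bottom), 1 bar per library, coloured by title group (blue WT, light blue WT secretin, red dnTGFB, purple dnTGFB secretin). Male ratios were 6.35 or more in the 6 secretin-treated libraries and 4.48 or less in the 6 untreated ones, while the female ratios, 0.61 to 8.03, overlap between groups.

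The members did not all vary alike. Among male libraries the ratio of the highest to the lowest level of an immediate-early gene ran from 3.50 (Ier5) to 11.7 (Junb), with a median of 7.69, and 25 of the 27 were lowest in dnTGFB 3. Egr3 was the exception in the opposite direction, highest in that library. Heat shock genes spanned a wider range, from 1.64 for the constitutive Hspa8 to 32.0 for the inducible Hspa1b, and all 11 had their highest group mean in male WT. The immediate-early genes had no such common order: the highest group mean was dnTGFB secretin for 13, WT for 10, WT secretin for 2 and dnTGFB for 2. The share of all genes highest in male WT or lowest in dnTGFB 3 is not set beside these counts. They describe the members and are not read as traits of the classes. Hspa1a and Hspa1b share 47.1% and 49.9% of their 100-base transcript windows, so counts could be split between them and their single values are uncertain. Hspd1 and Hspe1 lie head to head on opposite strands of chromosome 1 and overlap, as do Jun with Junos and Junb with Prdx2, and the labels do not state whether reads were counted by strand. Fosl1 overlaps Ccdc85b on the opposite strand in the same way. Jund, Atf3, Dusp1, Zfp36, Hspa1a and Dnaja1 also have an overlapping gene on the opposite strand. Relative to Hspa8, the Hspa1 pair stood at 1.46 to 1.86 in male WT and 0.28 to 0.29 in WT secretin. It stood at 1.05, 1.13 and 0.09 in dnTGFB and 0.44 to 0.46 in dnTGFB secretin.

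**Figure D2:**
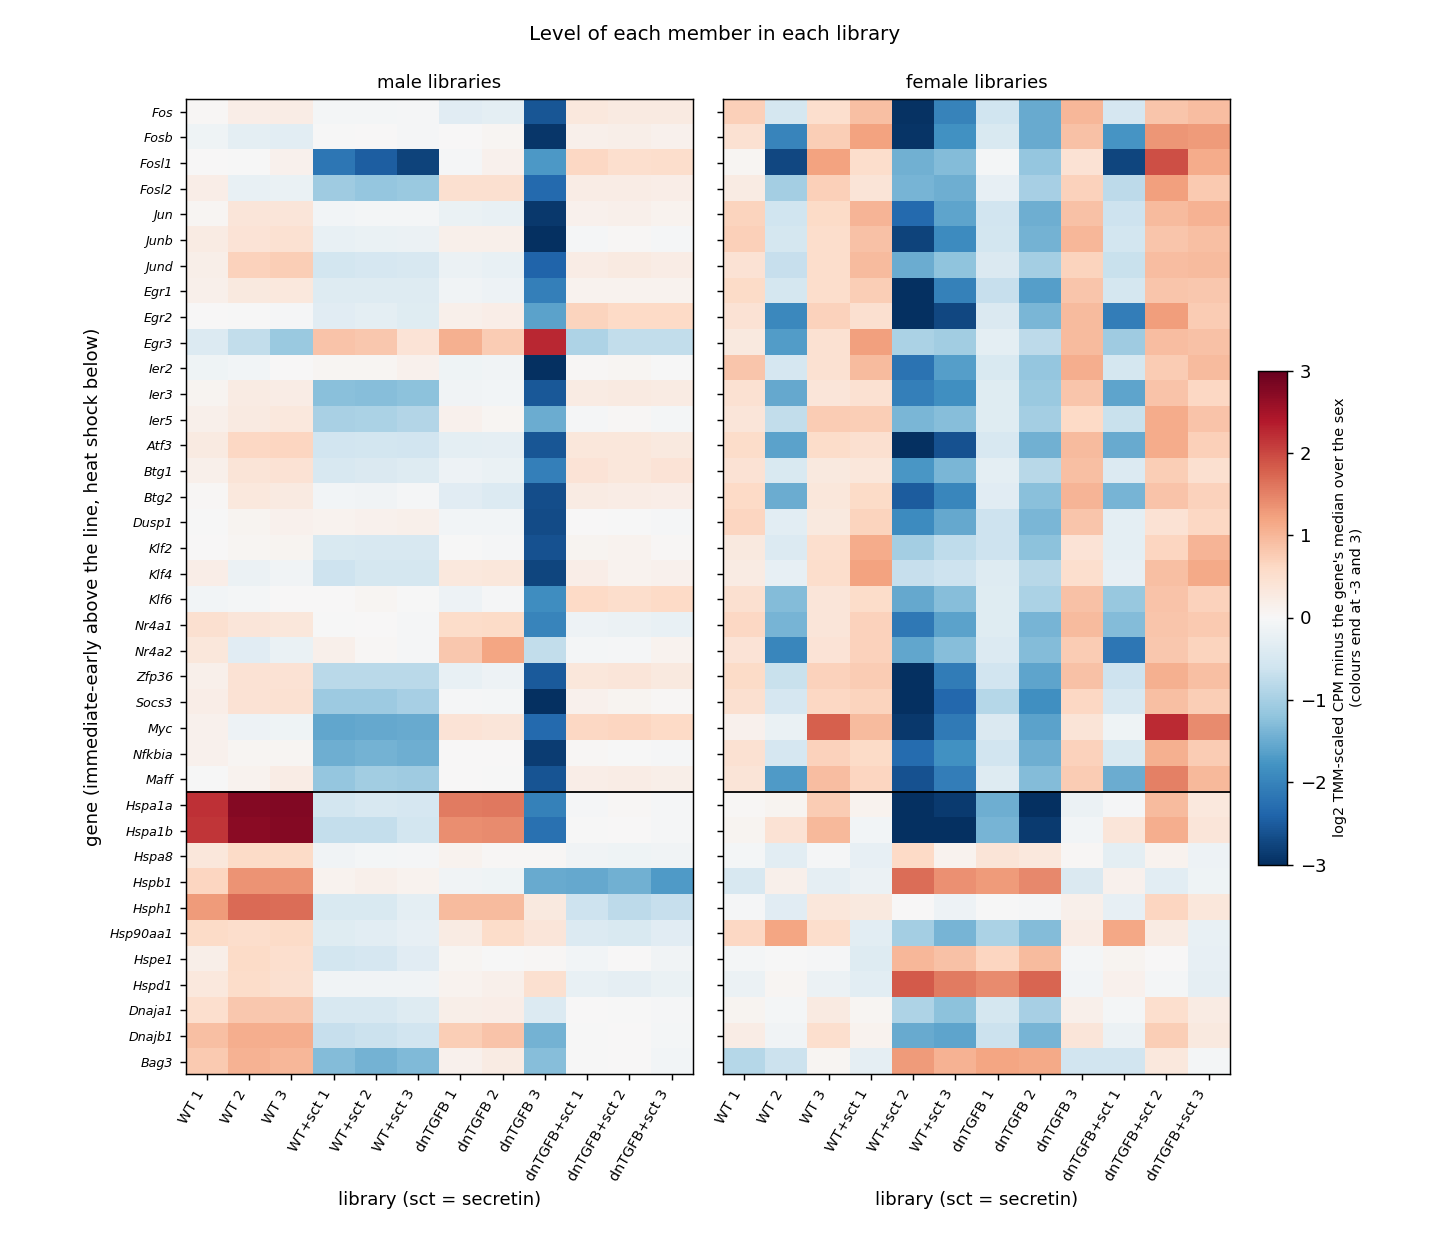
Level of the 38 members (rows) in each male (left) and female (right) library, as log2 TMM-scaled CPM minus the gene's median over the libraries of that sex, with colours ending at -3 and 3. Male dnTGFB 3 is the lowest male library for 25 of 27 immediate-early genes, and the 4 female libraries rich in heart muscle markers are low for Hspa1a and Hspa1b and high for Hspd1, Hspe1, Hspb1 and Bag3.

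Untreated male dnTGFB and WT cholangiocytes were compared to see how these genes stood in the disease model. Of the 11 heat shock genes 4 fell in dnTGFB, none rose and 7 did not pass, where 17.0% of all 18777 genes tested passed, 8.55% higher and 8.46% lower. Of the 27 immediate-early genes 1 rose, Egr3, and none fell. The median log2 fold change was -0.70 over the heat shock genes and -0.56 over the immediate-early genes, beside 0.01 over all genes. A gene was called at an adjusted p under 0.05 in edgeR's quasi-likelihood test, and fold changes are log2 with their standard error. With library totals as the scale, which moved the median of all genes to -0.44, 7 heat shock and 21 immediate-early genes were called lower, as were 22.5% of all genes. The number of members called, 5, became 30 without dnTGFB 3 and 2 without WT 2 or WT 3. When only the 6 libraries compared were fitted, no member and no gene of 16879 passed edgeR's test (0%). In that fit 2 members and 2860 genes were at an unadjusted p under 0.05. On all 12 libraries DESeq2 called 9 members. The share of all genes is not set beside the counts from DESeq2 or without 1 library. They are not read as a result about the members.

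Hspb1, a small heat shock protein that binds unfolded clients, stood at 246.7, 399.4 and 402.0 CPM in male WT and at 146.5, 144.8 and 55.7 CPM in dnTGFB. The groups did not overlap, and Hspb1 fell by 1.58 ± 0.33 (adjusted p = 0.00947). Bag3, which couples Hsp70 to small heat shock proteins, stood at 314.2, 375.3 and 366.2 CPM in WT and 200.8, 216.3 and 75.1 CPM in dnTGFB, again without overlap. Its change was -1.09 ± 0.31 (adjusted p = 0.0347). Hsph1 and Dnaja1 also fell (adjusted p = 0.0269 and 0.0390). The calls of Bag3, Hsph1 and Dnaja1 were lost when WT 2 or WT 3 was left out, whereas that of Hspb1 held without any 1 library, though not in the fit of only the 6 libraries. The inducible pair did not pass: Hspa1a was 1224, 1814 and 1843 CPM in WT and 789.5, 811.3 and 66.3 CPM in dnTGFB, a difference of -1.55 ± 0.63 (adjusted p = 0.114). Hspa1b was 1652, 2438 and 2495 CPM against 970.5, 989.6 and 78.0 CPM, a difference of -1.69 ± 0.65 (adjusted p = 0.0943). Both genes were lower in every dnTGFB library than in any WT library, and the third dnTGFB library lay far below the other two.

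Egr3, a zinc-finger factor induced in lymphocytes and neurons, was at 5.67, 4.51 and 3.50 CPM in male WT and 15.9, 12.8 and 36.4 CPM in dnTGFB. It rose by 2.18 ± 0.36 (adjusted p = 0.00486), and the call held without any 1 library but not in the fit of only the 6 libraries. Fos was at 3072, 3462 and 3502 CPM in WT and 2363, 2465 and 508.7 CPM in dnTGFB, a difference of -0.91 ± 0.46 that did not pass (adjusted p = 0.184). Egr1 was at 2955, 3282 and 3315 CPM in WT and 2484, 2404 and 646.5 CPM in dnTGFB, a difference of -0.79 ± 0.41 (adjusted p = 0.195). Jun, which pairs with Fos in AP-1, was at 3289, 4078 and 4049 CPM against 2755, 2692 and 425.3 CPM. For Fos, Egr1 and Jun every dnTGFB library lay below every WT library, with libraries 1 and 2 moderately lower and library 3 several-fold lower.

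Library dnTGFB 3 differed from dnTGFB 1 and 2 by gene and not by a common factor. The mean of libraries 1 and 2 was 12.6 times the level of library 3 for Hspa1b, 12.1 times for Hspa1a and 9.43 times for Junb, but 1.04 times for Hsp90aa1, 1.02 times for Hspa8 and 0.99 times for Hspe1. For Egr3 it was 0.39 times. The same library held 5528 CPM of 9 neuronal markers and 13113 CPM of 10 heart muscle markers, against 712.5 and 738.2 CPM and 360.7 and 612.4 CPM in dnTGFB 1 and 2. In this comparison all 9 neuronal markers were higher in dnTGFB (100.7 to 120.2 CPM summed in WT), 9 of 12 cholangiocyte markers were lower (639.5 to 1040 CPM summed, with 1 marker at 0 in library 3, against 2151 to 3416 CPM in WT) and all 6 B cell markers were lower (7.60 to 33.5 CPM against 177.2 to 325.6 CPM). Of 8 macrophage markers 7 were lower (131.4 to 224.4 CPM against 365.6 to 497.6 CPM), and of 8 endothelial markers 1 was (665.3 to 3395 CPM against 4358 to 5287 CPM). The 12 hepatocyte markers, none of which passed, summed to 27141, 25729 and 3677 CPM in dnTGFB and to 16153, 3158 and 3123 CPM in WT. Their part in the result was not tested. Without WT 1 and dnTGFB 3, an alternative chosen after the data were seen, 10 heat shock genes fell and none rose, 8 immediate-early genes rose and 16 fell, and 47.4% of all genes passed (22.3% higher and 25.1% lower). The changes were then -1.46 ± 0.06 for Hspb1 (adjusted p = 2.84e-15), -1.34 ± 0.04 for Hspa1b (adjusted p = 7.17e-18), -0.53 ± 0.03 for Fos (adjusted p = 1.34e-14) and 1.83 ± 0.22 for Egr3 (adjusted p = 2.23e-07), from 2 libraries a group. WT 1 and dnTGFB 3 were left out for lying apart from their group in these same counts. The small standard errors and p-values follow in part from that choice.

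**Figure D3:**
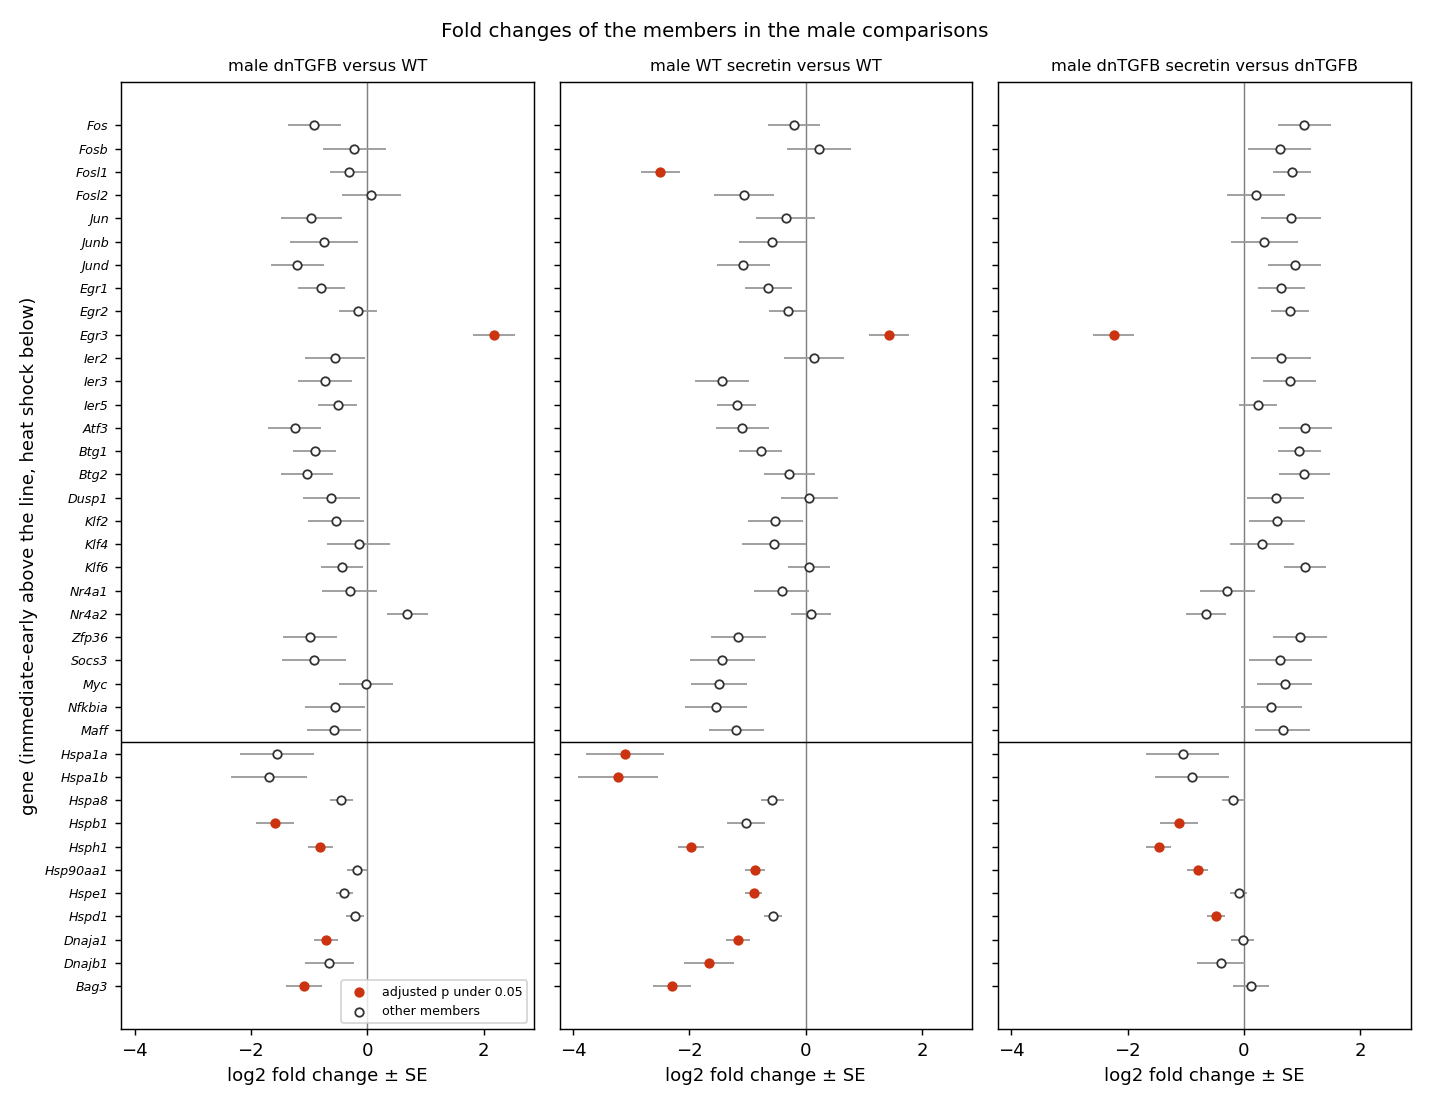
Log2 fold change of each member with its standard error (horizontal bars) in the 3 male comparisons, from edgeR on all 12 male libraries, with members called at an adjusted p under 0.05 filled red and the others open. All 11 heat shock genes lie below 0 in the first and second panels, and Egr3 is the single immediate-early gene called higher there.

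Secretin-treated male WT cholangiocytes had lower levels of most heat shock genes than untreated ones. Of the 11, 8 fell and none rose, where 6.22% of the 18777 genes tested passed, 3.55% higher and 2.67% lower. Of the 27 immediate-early genes, Egr3 rose and Fosl1 fell. The median difference was -1.16 over heat shock genes and -0.57 over immediate-early genes, beside 0.00 over all genes. With library totals as the scale 5 heat shock genes were called lower, where 1.12% of all genes were, and Egr3 lost its call. The number of members called, 10, was 4 without WT 2, WT 3 or any 1 of the treated libraries. The share of all genes in those fits is not set beside this count, which describes the fits only. This comparison and the preceding one share the 3 untreated WT libraries.

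Hspa1b stood at 226.4, 226.5 and 252.4 CPM in male WT secretin, against 1652, 2438 and 2495 CPM in WT, and fell by 3.22 ± 0.69 (adjusted p = 0.0201). Hspa1a stood at 185.4, 193.4 and 190.5 CPM against 1224, 1814 and 1843 CPM and fell by 3.10 ± 0.67 (adjusted p = 0.0215). The groups were separated by several-fold for both inducible Hsp70 genes. Both calls held without WT 1 but not without WT 2, WT 3 or any 1 of the 3 secretin libraries, when the adjusted p reached 0.0999 for Hspa1b and 0.101 for Hspa1a. Bag3, Hsph1, Dnajb1, Dnaja1, Hspe1 and Hsp90aa1 fell too (adjusted p from 0.000895 for Hsph1 to 0.0442 for Dnajb1). Of these 6, the calls of Bag3, Hsph1 and Hspe1 held without any 1 library, while Dnajb1 lost its call without any 1 of the 6. Dnaja1 and Hsp90aa1 lost theirs without any 1 library except WT 1. Hspa8, Hspb1 and Hspd1 did not pass (adjusted p = 0.117, 0.0891 and 0.0552), although none of the 3 overlapped between the groups with TMM scaling. All 3 overlapped with library totals as the scale, where WT 1 lay below the treated libraries (for Hspa8 1392 CPM against 1641 to 1715 CPM). With TMM scaling the constitutive Hspa8 was at 1971, 2327 and 2326 CPM in WT and 1441, 1504 and 1519 CPM in WT secretin, a much smaller separation than that of the inducible pair.

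Fosl1, a Fos-family partner of Jun in AP-1, stood at 37.0, 36.2 and 40.2 CPM in male WT and 8.08, 6.62 and 5.35 CPM in WT secretin. It fell by 2.50 ± 0.34 (adjusted p = 0.00234), a call that held without any 1 library. Egr3 was at 13.7, 13.3 and 10.1 CPM in WT secretin against 5.67, 4.51 and 3.50 CPM, and rose by 1.44 ± 0.35 (adjusted p = 0.0330). The Egr3 call was lost without WT 2, WT 3 or any 1 secretin library. Fos was at 2877, 2892 and 2955 CPM in WT secretin, a difference of -0.20 ± 0.45 (adjusted p = 0.853), and Egr1 at 2040, 2040 and 2053 CPM, a difference of -0.64 ± 0.40 (adjusted p = 0.413). With TMM scaling their separation from WT was small beside that of the inducible Hsp70 genes, and Jun at 2959, 3016 and 3019 CPM likewise lay below the WT libraries. With library totals as the scale WT 1 lay below the treated libraries for Fos, Egr1 and Jun, so this order depends on the scale. Other immediate-early genes ranged from Dusp1, at 1544 to 1604 CPM against 1438 to 1565 CPM in WT with overlap, to Myc, at 37.1 to 38.3 CPM against 97.8 to 118.9 CPM without overlap.

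Beside these values, 7 of 8 acinar markers tested were higher in male WT secretin (160.8 to 165.8 CPM over the list of 10, with 1 or 2 at 0 in each library, against 61.6 to 73.9 CPM), as were 4 of 5 mesothelial and 4 of 8 stellate or fibroblast markers. All 6 B cell markers were lower (91.3 to 97.5 CPM against 177.2 to 325.6 CPM). None of the 12 hepatocyte markers passed, but their sum was 16153 CPM in WT 1 and 3158 and 3123 CPM in WT 2 and 3, against 15070 to 15927 CPM in WT secretin. Their part in the result was not tested. Without WT 1 and dnTGFB 3, all 11 heat shock genes fell, 4 immediate-early genes rose and 21 fell, and 40.5% of all genes passed (19.9% higher and 20.6% lower). There Hspa1b changed by -3.39 ± 0.04 (adjusted p = 4.75e-26), Hspa1a by -3.27 ± 0.03 (adjusted p = 1.10e-27), Fosl1 by -2.50 ± 0.12 (adjusted p = 1.19e-14) and Fos by -0.26 ± 0.02 (adjusted p = 1.02e-09). This choice was made after the data were seen, and WT 2 and 3, the WT libraries left, lay 1.17 apart in chi-square per gene. These standard errors and p-values therefore do not measure the spread of the whole group.

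In male dnTGFB mice, secretin-treated cholangiocytes had lower levels of 4 of 11 heat shock genes and higher levels of none. Among all genes 22.6% passed, 10.1% higher and 12.4% lower. Of the immediate-early genes Egr3 fell and none rose. The median difference was -0.48 over heat shock genes and 0.64 over immediate-early genes, beside -0.05 over all genes. Scaled to library totals alone, which moved the median of all genes to 0.75, the median was 0.18 over heat shock genes and 1.67 over immediate-early genes, 24 immediate-early and 2 heat shock genes (Bag3 and Dnaja1) were called higher, as were 35.7% of all genes, and no heat shock gene was called lower, where 4.46% of all genes were. The number of members called, 5, became 27 without dnTGFB 3 and 2 without any 1 of the treated libraries. The share of all genes in those fits is not set beside these counts, which describe the fits only. This comparison shares the untreated dnTGFB libraries with the first.

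Hsph1, an Hsp110 that exchanges the nucleotide of Hsp70, stood at 133.5, 119.6 and 127.0 CPM in male dnTGFB secretin and 396.7, 399.5 and 253.4 CPM in dnTGFB. It fell by 1.47 ± 0.22 (adjusted p = 0.00182) with TMM scaling, and the call held without any 1 library. It did not pass when scaled to library totals (-0.67, adjusted p = 0.0753). Hspb1 stood at 54.4, 58.5 and 48.3 CPM against 146.5, 144.8 and 55.7 CPM, so that the third dnTGFB library overlapped the treated ones. It fell by 1.12 ± 0.32 (adjusted p = 0.0318), a call kept without dnTGFB 3 alone. Hsp90aa1 and Hspd1 fell as well (adjusted p = 0.0136 and 0.0459). Hsp90aa1 lost its call without any 1 of the treated libraries, and Hspd1 without dnTGFB 2 or any 1 of the treated libraries. When only the 6 libraries compared were fitted, none of these 4 passed and Egr3 did, where 2.90% of all genes passed.

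Hspa1a was at 263.4, 275.4 and 264.5 CPM in male dnTGFB secretin, and Hspa1b at 367.3, 374.5 and 361.4 CPM. Both lay below dnTGFB 1 and 2 and above dnTGFB 3, and the differences of -1.06 ± 0.63 and -0.89 ± 0.63 did not pass (adjusted p = 0.235 and 0.325). Egr3 was at 4.01, 4.55 and 4.51 CPM against 15.9, 12.8 and 36.4 CPM in dnTGFB and fell by 2.24 ± 0.36 (adjusted p = 0.00295), also without any 1 library. Fos was at 3723, 3623 and 3629 CPM, above all dnTGFB libraries, a difference of 1.04 ± 0.46 (adjusted p = 0.120). Egr1 was at 2883, 2861 and 2864 CPM, a difference of 0.64 ± 0.40 (adjusted p = 0.268), and Jun at 3441, 3489 and 3369 CPM. Both also lay above every untreated dnTGFB library.

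In the same comparison 11 of 12 cholangiocyte markers were higher (5110 to 5216 CPM summed, against 639.5 to 1040 CPM), all 8 macrophage markers were higher (643.1 to 677.6 CPM against 131.4 to 224.4 CPM), all 9 neuronal markers were lower (297.6 to 352.4 CPM against 712.5 to 5528 CPM), and the mitochondrial share was 5.31% to 5.66% against 11.44% to 55.07%. The hepatocyte markers summed to 4090 to 4144 CPM with secretin. Their part in the result was not tested. Without dnTGFB 3 and WT 1, 10 heat shock genes fell and none rose, 19 immediate-early genes rose and 7 fell, and 46.6% of all genes passed (23.1% higher and 23.5% lower). In that fit Hspa1a changed by -1.58 ± 0.03 (adjusted p = 4.54e-22), Hspa1b by -1.41 ± 0.04 (adjusted p = 2.74e-19), Fos by 0.60 ± 0.02 (adjusted p = 2.41e-16) and Egr3 by -1.71 ± 0.19 (adjusted p = 1.01e-07). Here too the choice followed the data, and dnTGFB 1 and 2, the dnTGFB libraries left, lay 1.43 apart in chi-square per gene. The standard errors and p-values of that fit do not measure the spread of the whole group.

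**Figure D4:**
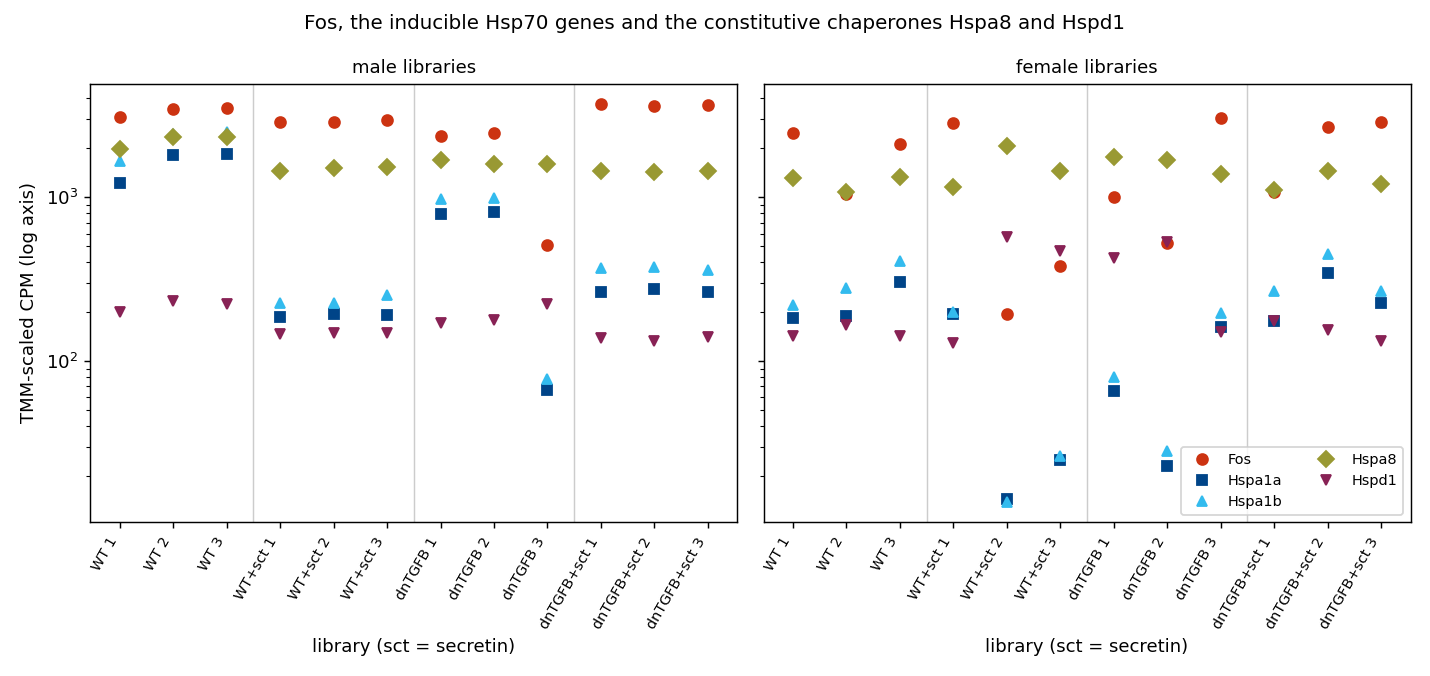
TMM-scaled CPM (log axis) of Fos, the inducible Hspa1a and Hspa1b, and the constitutive Hspa8 and Hspd1 in each male (left) and female (right) library, with vertical lines between groups. In males the Hspa1 genes drop from WT to WT secretin while Hspa8 stays between 1416 and 2327 CPM, and in females Fos, Hspa1a and Hspa1b are low and Hspd1 is high in WT secretin 2 and 3 and dnTGFB 1 and 2.

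In the female comparisons no member passed edgeR's test, as no gene of 19882 did (0% in each). At an unadjusted p under 0.05, 3 members passed in dnTGFB against WT, 4 in WT secretin against WT and 1 in dnTGFB secretin against dnTGFB. All were heat shock genes, and their lowest adjusted p in edgeR was 0.140 (Hsp90aa1 in WT secretin against WT). The share of all genes at that unadjusted p is not set beside these counts, so they are not read as a result about the class. DESeq2 called 1 member, Hsp90aa1, lower in WT secretin than in WT, and none in the others. Median differences of the immediate-early genes were -0.28, -0.69 and 0.63 in these 3 comparisons, and those of the heat shock genes 0.02, 0.04 and 0.25.

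Libraries of 1 female group spread over much of the range of all. Fos was at 2477, 1045 and 2118 CPM in female WT, 2833, 194.2 and 377.6 CPM in WT secretin, 999.2, 526.0 and 3019 CPM in dnTGFB, while dnTGFB secretin gave 1069, 2677 and 2860 CPM. Egr1 was at 1805, 851.2 and 1740 CPM in WT, 2035, 151.2 and 298.3 CPM in WT secretin, 749.3, 387.5 and 2182 CPM in dnTGFB, while dnTGFB secretin gave 848.0, 2160 and 2130 CPM. Each group held both high and low libraries of both genes, and all 4 groups overlapped. Fos differed by -0.31 ± 0.98, -0.73 ± 0.98 and 0.54 ± 0.98 in the 3 comparisons (adjusted p = 0.884, 0.645 and 0.767), and Egr1 by -0.41 ± 0.95, -0.82 ± 0.95 and 0.63 ± 0.95 (adjusted p = 0.839, 0.584 and 0.715). Hspa1a was at 183.6, 189.2 and 303.1 CPM in female WT, 193.8, 14.5 and 24.8 CPM in WT secretin, 65.3, 22.8 and 160.6 CPM in dnTGFB, while dnTGFB secretin gave 176.7, 346.5 and 224.8 CPM. Hspa1b was at 221.1, 280.8 and 409.0 CPM, then 198.3, 13.8 and 26.3 CPM, 79.6, 28.4 and 196.9 CPM, and 268.1, 448.3 and 268.4 CPM in the same order. With TMM scaling untreated dnTGFB lay below WT and below dnTGFB secretin without overlap for both inducible genes. With library totals as the scale this held for Hspa1b only: for Hspa1a dnTGFB 3 then lay above WT 2 and above dnTGFB secretin 1. The differences did not pass: for Hspa1b they were -1.58 ± 0.94 and 1.69 ± 0.94 (adjusted p = 0.341 and 0.335), and for Hspa1a -1.44 ± 0.93 and 1.59 ± 0.93 (adjusted p = 0.378 and 0.355). In WT secretin against WT the differences were -1.94 ± 0.95 for Hspa1b and -1.54 ± 0.93 for Hspa1a (adjusted p = 0.214 and 0.298).

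Female libraries rich in heart muscle transcripts, which fall in WT secretin and in untreated dnTGFB, held lower levels of some chaperones than the other female libraries and higher levels of others. In the 4 libraries rich in heart muscle markers Fos was 194.2 to 999.2 CPM, against 1045 to 3019 CPM in the other 8, and Hspa1b 13.8 to 79.6 CPM against 196.9 to 448.3 CPM. Other chaperones lay higher there: Hspd1, the mitochondrial chaperonin, was 426.0 to 574.3 CPM against 129.1 to 174.6 CPM, and Bag3 was 211.7 to 250.0 CPM against 57.2 to 127.5 CPM. Among all 19882 genes tested in females, 15.1% lay lower in the 4 libraries without overlap and 27% higher. Of the 27 immediate-early genes 8 lay lower without overlap and 19 overlapped. Of the 11 heat shock genes 5 lay lower (Hspa1a, Hspa1b, Hsp90aa1, Dnaja1 and Dnajb1), 4 higher (Hspb1, Hspe1, Hspd1 and Bag3) and 2 overlapped (Hspa8 and Hsph1). With so many genes apart between these libraries, the counts describe the libraries. Whether chaperones were apart more often than other genes was not tested. Hspb1 and Bag3 are known to be abundant in heart muscle, and Hspd1 and Hspe1 in cells rich in mitochondria. Cholangiocyte markers summed to 148.5 to 1463 CPM in these 4 libraries and to 638.2 to 4377 CPM in the other 8. Their part in the result was not tested.

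The median difference of the immediate-early genes had another sign when other female libraries were kept. Without the 4 libraries rich in heart muscle WT secretin and dnTGFB are left with 1 library each, so every comparison has a group of 1 whose spread is taken from the other groups. The medians were then 0.53, 0.45 and -0.29, given as a description only. Without the female libraries apart from their group, which leaves WT 1 and 3, WT secretin 2 and 3, dnTGFB 1 and 2 and dnTGFB secretin 2 and 3, the medians were -1.37, -2.51 and 1.72. Of the 27 immediate-early genes 25 then fell in dnTGFB against WT, where 41.4% of all genes passed (24.3% higher and 17.1% lower). All 27 fell in WT secretin against WT (51.2% of all genes, 28.3% higher and 22.9% lower) and all 27 rose in dnTGFB secretin against dnTGFB (45.4%, 19.9% higher and 25.5% lower). In each of these comparisons 1 group then consists of heart-rich libraries only, so group and heart muscle content cannot be told apart there. Fos changed by -1.57 ± 0.37, -2.99 ± 0.39 and 1.84 ± 0.38 (adjusted p = 0.0105, 0.000353 and 0.00472). The libraries left out were picked from these same counts, so these p-values do not measure the spread of the whole groups.

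Further genes of the same pathways were taken from lists drawn up by function. Of 40 other rapid response genes 3 rose and 1 fell in male dnTGFB against WT, 10% of the list beside 17.0% of all genes, among them Egr4 (2.64 ± 0.72, adjusted p = 0.0294) and Arc (1.52 ± 0.44, adjusted p = 0.0383), both activity-induced genes of neurons, and Tob1, an antiproliferative factor (-0.74 ± 0.19, adjusted p = 0.0219). In male WT secretin against WT none rose and 10 fell, 25.0% beside 6.22%, among them Irf1, an interferon regulatory factor (-2.44 ± 0.54, adjusted p = 0.0228), and Nr4a3, the third Nr4a receptor (-2.34 ± 0.37, adjusted p = 0.00537). In male dnTGFB secretin against dnTGFB 4 rose and 1 fell, 12.5% beside 22.6%: the genes that rose include the matricellular Ccn1 (1.60 ± 0.40, adjusted p = 0.0202) and the ERK phosphatase Dusp5 (1.07 ± 0.32, adjusted p = 0.0356), and Nr4a3 was the gene that fell (-1.20 ± 0.36, adjusted p = 0.0347). Their medians were -0.40, -1.0 and 0.37. By library, Egr4 stood at 5.07, 4.63 and 34.0 CPM in male dnTGFB against 1.69 to 2.91 CPM in WT. Arc stood at 63.2, 46.8 and 214.1 CPM against 36.1 to 38.3 CPM. Both were by far highest in dnTGFB 3, the library rich in neuronal markers, whose part in these rises was not tested.

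Of 31 other chaperone genes 3 rose and 1 fell, none rose and 6 fell, and 1 rose and 5 fell in these 3 male comparisons, with medians of 0.05, -0.11 and -0.24. The called shares of 12.9%, 19.4% and 19.4% stand beside 17.0%, 6.22% and 22.6% of all genes, so in both dnTGFB comparisons the list is no higher than the background. The J-domain gene Dnaja4 fell with secretin in both genotypes (-1.33 ± 0.18, adjusted p = 0.00246 in WT, and -2.02 ± 0.19, adjusted p = 0.000136 in dnTGFB). Hspa4l, an Hsp110, and the small heat shock gene Hspb8 rose in dnTGFB against WT (1.61 ± 0.46, adjusted p = 0.0344, and 1.47 ± 0.44, adjusted p = 0.0409), and Hspb8 fell with secretin in dnTGFB (-1.69 ± 0.44, adjusted p = 0.0221). Hspa2 was lower in dnTGFB than in WT (-0.58 ± 0.16, adjusted p = 0.0289), lower with secretin in WT (-1.10 ± 0.15, adjusted p = 0.00274) and higher with secretin in dnTGFB (0.60 ± 0.16, adjusted p = 0.0224).

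Of 18 upstream regulators 1 rose and 5 fell in male dnTGFB against WT, none rose and 1 fell in WT secretin against WT, and 3 rose and 2 fell in dnTGFB secretin against dnTGFB. These are 33.3%, 5.6% and 27.8% of the list, beside 17.0%, 6.22% and 22.6% of all genes. Hsf1 passed in none of these 3 comparisons (-0.28 ± 0.14, 0.22 ± 0.13 and 0.08 ± 0.14, adjusted p = 0.168, 0.391 and 0.717). Srf fell in the first and second and rose in the last (-0.54 ± 0.14, -0.73 ± 0.14 and 0.97 ± 0.14, adjusted p = 0.0239, 0.0129 and 0.00167). Among its partners Elk1 rose in dnTGFB against WT (0.91 ± 0.25, adjusted p = 0.0318), while Elk3 and Elk4 fell (-1.23 ± 0.32 and -0.86 ± 0.24, adjusted p = 0.0243 and 0.0334). In dnTGFB secretin against dnTGFB Elk4 rose (1.10 ± 0.24, adjusted p = 0.0136), and Elk1 and the p38 kinase gene Mapk14 fell (-0.82 ± 0.25 and -0.54 ± 0.16, adjusted p = 0.0379 and 0.0369), although Mapk14 stood at 0.07 with library totals as the scale. Transcript levels of these kinases and factors do not measure their activity. In females no gene of the 3 lists passed, at unadjusted p under 0.05 for 9, 9 and 8 of them in the order above. These counts are not set beside the share of all genes at that p, so they are not read as a result about the lists.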

How the data were processed

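Libraries were made from poly(A)-selected RNA of magnetically separated cholangiocytes, per the labels' protocols. The authors deposited 1 table of whole-number read counts per gene and library; neither aligner, counter nor strand setting is named in the labels. Ensembl identifiers were matched to symbols in GENCODE M21 (49056 of 49315). Counts were tested within each sex on all 12 libraries, 1 mean per group, with edgeR 4.0.16 (TMM, filterByExpr, robust quasi-likelihood F test) in R 4.3.3. Benjamini-Hochberg adjustment covered all genes tested, with calls at 0.05. The fit was tested on simulated counts. Alternatives were DESeq2 1.42.0, other scalings, no filter, only the 6 libraries compared, a replicate block and leaving out libraries.

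The members, and the lists of other genes and markers, were chosen with earlier results of these data known. Fold changes are printed for called members, at most 3 immediate-early and 2 heat shock genes in each direction, and always for Fos, Egr1, Hspa1a and Hspa1b; other members are named without one. Of the other lists at most 2 called genes per direction are named, and always Hsf1 and Srf.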

Additional observations from a re-analysis of the deposited data

Results flagged for a closer look

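Hspa8, the constitutive Hsp70, moved in opposite directions between untreated dnTGFB and WT in males and females. In males all 3 dnTGFB libraries lay below all 3 WT libraries (-0.44 ± 0.20, edgeR adjusted p = 0.137). In females all 3 lay above (0.38 ± 0.36, adjusted p = 0.557), and dnTGFB 1 and 2 are among the libraries rich in heart muscle markers. Both separations hold with TMM scaling only: with library totals as the scale male dnTGFB 3 (1907 CPM) lay above WT 1 (1392 CPM), and female dnTGFB 2 (1213 CPM) lay below WT 1 (1424 CPM). Neither difference passed, and the difference between the sexes was not tested.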

How the results depend on the processing

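The number of members called in male dnTGFB against WT, 5, became 9 with DESeq2, 29 with library totals, 2 with the replicate block, 0 with only the 6 libraries compared and 34 without the libraries apart from their group. In male WT secretin against WT, 10 became 17 with DESeq2, 34 with only the 6 libraries and 36 without the libraries apart. In male dnTGFB secretin against dnTGFB, 5 became 27 with library totals, 3 with no filter, 3 with the replicate block, 1 with only the 6 libraries and 36 without the libraries apart. In females the 0 of each comparison became 34, 36 and 37 without the libraries apart, and 1 with DESeq2 in WT secretin against WT. Leaving out 1 library gave 2 to 30, 4 to 9 and 2 to 27 members in males and 0 to 16 in female WT secretin against WT (16 without WT secretin 1). The cause was not tested. Where no share of all genes is given in the results above, these counts are not read as a result about the members. Shared replicate numbers did not pair the libraries (correlations -0.15 to 0.21 in males and -0.79 to 0.82 in females), so calls lost with the block are not read as weaker effects. Mapk14 in male dnTGFB secretin against dnTGFB turned to 0.073 with library totals.

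Scaled to library totals, the mean immediate-early sum was 26320 CPM in male WT secretin and 41169 CPM in male dnTGFB secretin, and the mean heat shock sum 4056, 3878 and 4808 CPM in male WT secretin, dnTGFB and dnTGFB secretin, and 3106 and 4258 CPM in female dnTGFB and dnTGFB secretin. The order of male dnTGFB against both secretin groups was thus the reverse of that with TMM scaling. Without Jun the immediate-early sum was 30783, 20201 and 29563 CPM in male WT, WT secretin and dnTGFB secretin. Without Hspa8 the heat shock sum was 7706, 2087, 3810 and 2423 CPM in male WT, WT secretin, dnTGFB and dnTGFB secretin, and 2289, 1695, 1781 and 2270 CPM in the female groups. With 1429218 counts, male dnTGFB 3 limits the values of low genes.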
